A study of Mus musculus with 5 samples.

Results

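The p53 pathway was described in mouse pluripotent cells through 10 genes: Trp53, which encodes p53, and 9 of its target genes, Cdkn1a, Mdm2, Ccng1, Pmaip1, Perp, Bbc3, Zmat3, Trp53inp1 and Eda2r. They were taken by symbol from a table of 23951 genes, and all 10 were found and had a mean of at least 1 FPKM (sequenced fragments scaled to transcript length and library depth) over the libraries. In all, 11011 genes reached that mean. RNA sequencing of polyadenylated RNA covered 5 libraries of 1 sample each. Of these, 3 came from epiblast stem cells derived from E14 embryonic stem cells (EpiSCs, the primed state of pluripotency), which were kept with FGF2 and Activin A in N2B27 medium on plates coated with serum: 1 library of untreated cells, 1 after 1.5 h with 10 ng/ml BMP-4 and 1 after 24 h with the same dose. The other 2 came from embryonic stem cells of the mouse line E14 (ESCs, the naive state): BMP-4 ESCs, grown in a basal medium with LIF and 10 ng/ml BMP-4, and serum ESCs, grown on gelatin with LIF and fetal bovine serum. The study asked how BMP signalling acts in each state. No label names a genetic change in any group.

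p53 is a transcription factor that is kept low by the ubiquitin ligase Mdm2 and accumulates when DNA damage or other stress blocks that degradation. It then switches on genes of cell cycle arrest, DNA repair and apoptosis, and also Mdm2 itself, which closes a feedback loop. Its activity is set largely at the protein level, so its mRNA and the mRNA of its targets need not move together. Mouse ESCs are known for an abundant p53 and a weak arrest in G1, and p53 has been linked there to differentiation as well as to damage.

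Every group held 1 library. Without replicates no difference could be tested, and p-values are left out. Values in parentheses after an FPKM are the lower and upper bounds deposited with it, 95% limits by the definition of Cufflinks, and 2 intervals that do not overlap are called apart. Differences are of log2(FPKM + 1), a scale that makes the change of low genes look smaller, and a fold is the ratio of the FPKM + 1 values. In counts, a gene is "higher" or "lower" where that fold is at least 2. Depth, estimated from the whole-read steps of low values, was about 8520000 to 13400000 reads per library. The labelled states matched their markers in sum: the summed FPKM of 6 naive genes was 2.26 to 4.29 in EpiSCs and 1435 to 1627 in ESCs, and that of 6 primed genes 399 to 637 in EpiSCs and 62.8 to 71.1 in ESCs. Most of the primed sum in EpiSCs was Dnmt3b and Fgf5. Each primed gene stood above both ESC libraries in untreated EpiSCs. After 24 h of BMP-4, Sox3 (1.60 FPKM) no longer stood above BMP-4 ESCs (1.61), and Otx2 (8.21) was close to them (5.83). Markers of 3 endoderm genes summed to 5.06 to 8.11 FPKM in EpiSCs and 0.357 to 0.720 in ESCs, and those of 3 trophoblast genes to 1.91 to 5.41 in EpiSCs and 0.230 to 0.363 in ESCs. Most of the trophoblast sum was Krt7, at 5.25, 3.54 and 1.00 FPKM in the EpiSC libraries in order of time. Gata3 stood at 0.156, 0.503 and 0.873 FPKM there, and Elf5 at 0.0361 after 24 h and 0 elsewhere. Markers of 2 neural genes summed to 0.423 to 0.525 FPKM in EpiSCs and 3.13 to 9.02 in ESCs, and those of 5 fibroblast genes to 3.72 to 5.42 in EpiSCs and 2.70 to 4.54 in ESCs, with Dcn listed at 0 in every library. The part of these low marker sums in the differences between EpiSCs and ESCs was not tested.

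p53 binds DNA at pairs of a 10-base half-site, with a core of C, 2 bases that are A or T, and G. The half-site consensus was searched in RefSeq promoter windows of the GRCm38.p6 build, from 250 bases before to 50 bases after each annotated start, and since it is its own reverse complement a single search covers both strands. Windows were matched for 6 of the 10 genes (9 windows), and those of Trp53, Cdkn1a, Mdm2 and Ccng1 held a match. They are shown because Cdkn1a and Ccng1 differed most clearly between the states among the matched genes, while Mdm2 differed less and Trp53 stood near its ESC level. Capitals mark each full match to the half-site and, in Cdkn1a, also a second half-site next to it with 1 flanking base off the consensus. Looser sites are not marked.
Cdkn1a, first start, chr17:29090729-29091028, plus strand: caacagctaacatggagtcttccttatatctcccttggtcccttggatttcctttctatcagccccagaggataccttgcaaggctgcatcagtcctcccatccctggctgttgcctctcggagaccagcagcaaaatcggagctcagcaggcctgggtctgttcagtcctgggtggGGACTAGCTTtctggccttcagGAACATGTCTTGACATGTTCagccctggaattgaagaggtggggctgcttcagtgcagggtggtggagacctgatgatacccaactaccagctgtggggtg
Ccng1, chr11:40755237-40755536, minus strand: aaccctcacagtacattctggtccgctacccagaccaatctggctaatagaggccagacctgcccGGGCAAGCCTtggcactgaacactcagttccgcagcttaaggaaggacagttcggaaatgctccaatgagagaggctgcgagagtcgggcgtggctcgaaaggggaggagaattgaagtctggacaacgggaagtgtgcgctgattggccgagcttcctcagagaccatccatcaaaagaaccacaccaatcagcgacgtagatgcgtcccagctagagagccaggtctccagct
Mdm2, chr10:117710709-117711008, minus strand: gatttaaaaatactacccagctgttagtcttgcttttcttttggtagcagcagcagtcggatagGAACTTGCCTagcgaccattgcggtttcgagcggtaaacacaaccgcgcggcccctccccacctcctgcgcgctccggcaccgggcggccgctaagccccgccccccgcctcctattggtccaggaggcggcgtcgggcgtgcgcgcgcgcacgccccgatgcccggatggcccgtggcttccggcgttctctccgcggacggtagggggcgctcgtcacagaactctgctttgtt
Trp53, chr11:69580109-69580408, plus strand: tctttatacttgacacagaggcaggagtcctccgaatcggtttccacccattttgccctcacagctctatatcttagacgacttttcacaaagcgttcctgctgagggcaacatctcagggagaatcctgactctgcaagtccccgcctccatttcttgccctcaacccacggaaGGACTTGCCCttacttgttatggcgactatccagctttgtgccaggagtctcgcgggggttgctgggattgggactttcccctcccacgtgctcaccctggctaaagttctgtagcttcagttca

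The first Cdkn1a window held 2 half-sites 12 bases apart, and the second of them, GAACATGTCT, ran into a further imperfect half-site to give the 20-base stretch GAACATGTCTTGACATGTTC, 51 to 32 bases before that start. Of 32851 windows in the table, 24 (0.0731%) held 2 half-sites at most 13 bases apart, and 18 (0.0548%) held 2 abutting half-sites with at most 1 flanking base off. The window of the second Cdkn1a start held none. Single full matches lay 186 to 177 bases before the Mdm2 start, 185 to 176 before that of Ccng1 and 75 to 66 before that of Trp53. At least 1 was held by 2745 windows (8.36%). The match of Ccng1 directly follows agacctgccc, which is off the half-site consensus at 1 core base. The search asked for intact cores, so this pair was not counted as abutting half-sites. No full match to the half-site was found in the windows of Bbc3 and Eda2r. The first Bbc3 window does hold 2 abutting 10-base stretches with intact cores, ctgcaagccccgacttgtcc, but with more than 1 flanking base off. Such looser sites, and sites outside the windows, were not counted. The lack of a match thus does not show that a gene lacks a p53 site. A match describes the letters of these windows and no binding was measured.

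Trp53 itself (mm9 chromosome 11, 69393861 to 69405375) stood at a similar mRNA level in all libraries. It had 65.4 FPKM (29.7 to 101) in untreated EpiSCs, 60.4 (26.6 to 94.2) after 1.5 h of BMP-4 and 63.3 (28.5 to 98.2) after 24 h, against 72.9 (33.8 to 112) in BMP-4 ESCs and 79.7 (36.8 to 123) in serum ESCs. The 3 EpiSC libraries were the lowest 3, and every interval overlapped every other. The difference of log2(FPKM + 1) was -0.28 for untreated EpiSCs minus serum ESCs and -0.16 for untreated EpiSCs minus BMP-4 ESCs. The processed pseudogene Trp53-ps matches Trp53 transcripts at 95% over 1170 nt in GENCODE M21 and is not listed in the table, so the Trp53 level is uncertain to that extent. Of the relatives of p53, Trp73 stood at 4.50 FPKM in untreated EpiSCs, against 0.752 in BMP-4 ESCs and 1.02 in serum ESCs, with overlapping intervals. Its ESC values lay close to the filter of 1 FPKM, which it passed mainly through its EpiSC values, so that filter favours such a difference. Trp63 was listed at 0 in untreated EpiSCs and in both ESC libraries and stood at 0.0749 and 0.137 FPKM after 1.5 h and 24 h.

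**Figure D1:**
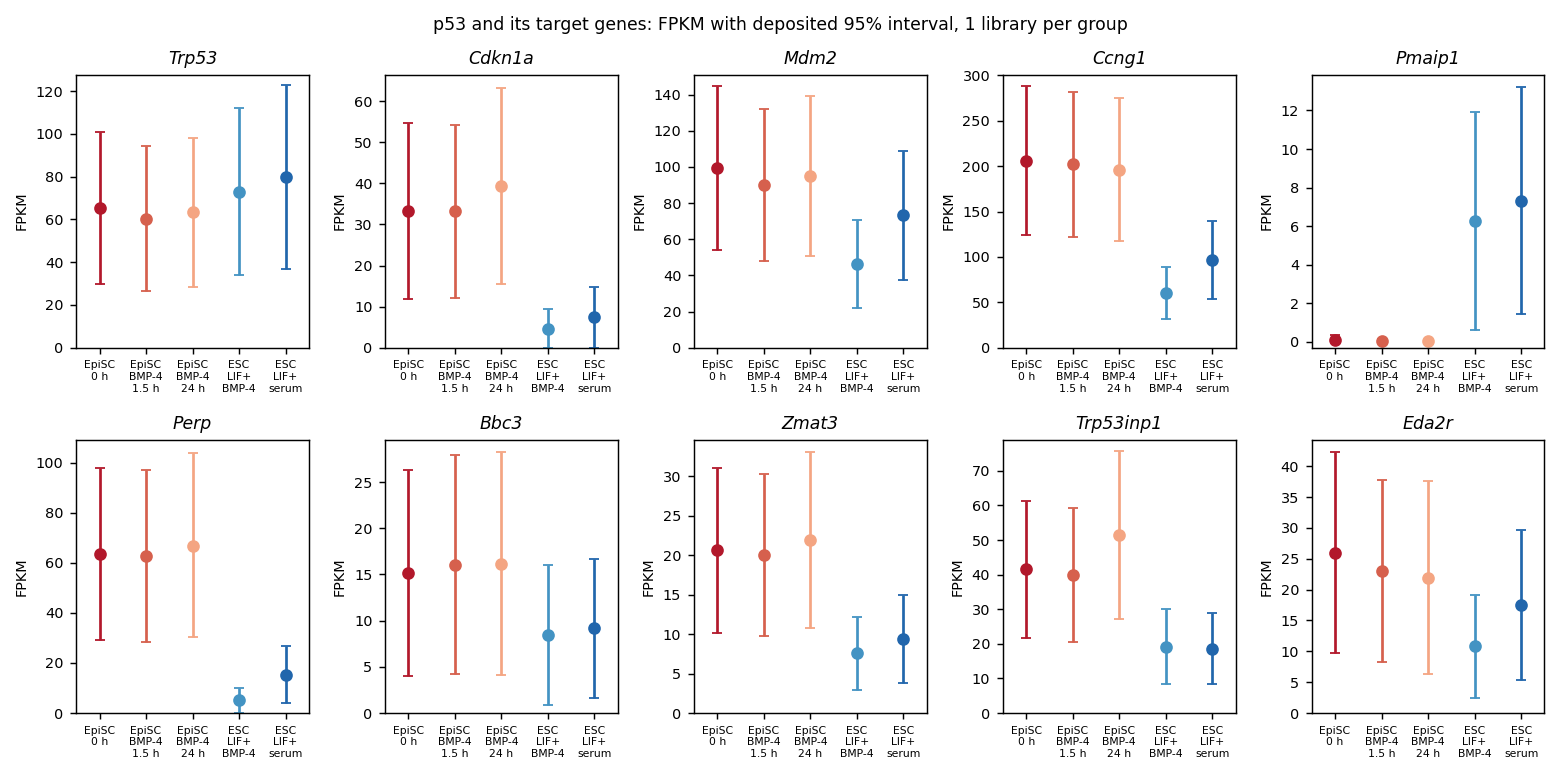
FPKM (vertical axis, linear) of Trp53 and 9 p53 target genes in 3 EpiSC and 2 ESC libraries. Points are single libraries and bars the deposited 95% intervals. Trp53 lies between 60.4 and 79.7 FPKM throughout, 8 targets lie above both ESC libraries in each EpiSC library, and Pmaip1 is near 0 in EpiSCs.

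Most of the target genes stood above their naive level in primed cells, although Trp53 did not. All 3 EpiSC libraries lay above both ESC libraries for 8 of the 10 genes (Cdkn1a, Mdm2, Ccng1, Perp, Bbc3, Zmat3, Trp53inp1 and Eda2r) and below them for 2, Trp53 and Pmaip1. Among all genes compared 34.9% lay above in the same way and 35.7% below. The EpiSC libraries share a cell type and are not replicates of a condition. The 10 genes, like the lists below, were chosen with earlier results of these data known. The shares of all genes are therefore no test of these counts. Between untreated EpiSCs and serum ESCs, 5 of the 10 were at least 2-fold higher, against 11.6% of 11007 genes, and 1 was lower, against 9.55%. Against BMP-4 ESCs, a comparison that shares the EpiSC library, 7 were higher, against 11.0% of genes, and 1 lower, against 10.0%. The median difference of the 10 genes was 0.86 and 1.13 in these comparisons, where that of all genes was -0.01 and 0.00. In such bulk samples fewer cells of a type and less RNA per cell cannot be told apart.

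Among the targets that hold the cell cycle, Cdkn1a differed most. It encodes p21, an inhibitor of cyclin-dependent kinases, and lies on mm9 chromosome 17 (29227931 to 29237667). Cdkn1a had 33.3 FPKM (11.9 to 54.7) in untreated EpiSCs, 33.2 (12.1 to 54.2) after 1.5 h and 39.4 (15.5 to 63.3) after 24 h, against 4.67 (0 to 9.52) in BMP-4 ESCs and 7.36 (0 to 14.8) in serum ESCs. The lowest EpiSC value was thus over the highest ESC value by 2.03 on the log2(FPKM + 1) scale. The untreated EpiSC level was 6.05-fold that of BMP-4 ESCs, with intervals apart, and 4.10-fold that of serum ESCs, where the lower EpiSC bound of 11.9 reached below the upper ESC bound of 14.8. A difference as large upward was found for 1.34% of all genes against BMP-4 ESCs and for 3.08% against serum ESCs. Cdkn1a transcripts share 262 nt at full identity with AC167363.2, a GENCODE M21 gene that is not listed in the table, and the counting of such reads is not stated. The lincRNA gene Trp53cor1, named here after its values were seen, stood at 0.548, 0.317 and 0.640 FPKM in the 3 EpiSC libraries in order of time and was listed at 0 in BMP-4 ESCs and at 0.0745 in serum ESCs.

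Ccng1, the gene of cyclin G1, which recruits a phosphatase to Mdm2, was the most abundant of the 10 in EpiSCs (chromosome 11, 40562054 to 40568788). It had 206 FPKM (124 to 288) in untreated EpiSCs, 202 (122 to 282) after 1.5 h and 196 (118 to 275) after 24 h, against 60.2 (31.1 to 89.4) in BMP-4 ESCs and 97.0 (53.9 to 140) in serum ESCs. The EpiSC values lay close together and the ESC values far below them. Untreated EpiSCs were 3.39-fold over BMP-4 ESCs, with intervals apart, and 2.12-fold over serum ESCs, with overlapping intervals.

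The feedback gene Mdm2 (chromosome 10, 117125931 to 117147814) differed less. Mdm2 had 99.4 FPKM (53.9 to 145) in untreated EpiSCs, 90.2 (47.9 to 132) after 1.5 h and 95.1 (50.8 to 139) after 24 h, against 46.4 (22.2 to 70.7) in BMP-4 ESCs and 73.2 (37.5 to 109) in serum ESCs. It was 2.12-fold higher in untreated EpiSCs than in BMP-4 ESCs and 1.35-fold over serum ESCs, both with overlapping intervals. Set against Trp53 in the same library, the ratio of FPKM of Mdm2 to Trp53 was 1.52, 1.49 and 1.50 in the EpiSC libraries in order of time, against 0.637 in BMP-4 ESCs and 0.919 in serum ESCs. Mdm2 was thus above Trp53, per length, in each EpiSC library and below it in both ESC libraries. The intervals of Mdm2 and Trp53 overlapped in every library, and the uncertainty of the Trp53 level from its pseudogene holds for ratios to Trp53 too. The same ratio for Cdkn1a was 0.509 to 0.622 in EpiSCs, against 0.0640 in BMP-4 ESCs and 0.0924 in serum ESCs, and for Ccng1 it was 3.10 to 3.34 in EpiSCs, against 0.826 in BMP-4 ESCs and 1.22 in serum ESCs.

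Mdm4 encodes a relative of Mdm2 that binds and restrains p53, and it ran the other way. Mdm4 stood at 8.84, 8.35 and 8.82 FPKM in the EpiSC libraries in order of time, against 22.9 in BMP-4 ESCs and 19.0 in serum ESCs. It was 2.42-fold lower in untreated EpiSCs than in BMP-4 ESCs and 2.03-fold lower than in serum ESCs, with overlapping intervals. The ratio of FPKM of Mdm2 to Mdm4 was 10.8 to 11.2 in EpiSCs, 2.03 in BMP-4 ESCs and 3.86 in serum ESCs.

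Perp, a membrane protein gene of desmosomes that also takes part in p53-driven apoptosis, showed the widest upward difference of the 10 against BMP-4 ESCs (chromosome 10, 18564877 to 18576878). Perp had 63.4 FPKM (29.0 to 97.8) in untreated EpiSCs, 62.8 (28.5 to 97.1) after 1.5 h and 66.9 (30.3 to 104) after 24 h, against 5.01 (0.139 to 9.88) in BMP-4 ESCs and 15.3 (4.03 to 26.6) in serum ESCs. The intervals of all EpiSC libraries were apart from those of both ESC libraries. Untreated EpiSCs were 10.7-fold over BMP-4 ESCs, where 0.581% of genes differed as much upward, and 3.94-fold over serum ESCs, where 3.31% did. The ratio of FPKM of Perp to Trp53 was 0.969 to 1.06 in EpiSCs, against 0.0687 in BMP-4 ESCs and 0.192 in serum ESCs. Perp also differed most of the 10 between the ESC libraries.

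The proapoptotic BH3-only genes Pmaip1 and Bbc3 parted. Pmaip1, on chromosome 18, encodes Noxa, which binds the survival protein Mcl1, and it was nearly absent from EpiSCs. Pmaip1 had 0.115 FPKM (0 to 0.362) in untreated EpiSCs, 0.0344 (0 to 0.140) after 1.5 h and 0.0283 (0 to 0.103) after 24 h, against 6.25 (0.620 to 11.9) in BMP-4 ESCs and 7.32 (1.45 to 13.2) in serum ESCs. With the 24 h value taken as 1 read, and the relative worth of a read in each library estimated from all low genes, these values came to 3, 1 and 1 reads in EpiSCs in order of time, 148 in BMP-4 ESCs and 165 in serum ESCs. The ratio of FPKM of untreated EpiSCs to serum ESCs was 0.0157, with an exact 95% counting interval of 0.00321 to 0.0468, and the ratio to BMP-4 ESCs was 0.0184 (0.00376 to 0.0549). These intervals cover counting error only and rest on that estimate of whole reads. Intervals were apart from both ESC libraries in all 3 EpiSC libraries. Pmaip1 reached the mean of 1 FPKM only through its ESC values, so a difference between the states was bound to follow from that filter.

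Bbc3 encodes Puma, which binds all the survival members of the Bcl2 family (chromosome 7, 16894932 to 16903683). Bbc3 had 15.1 FPKM (4.01 to 26.3) in untreated EpiSCs, 16.0 (4.18 to 27.9) after 1.5 h and 16.1 (4.08 to 28.2) after 24 h, against 8.48 (0.920 to 16.0) in BMP-4 ESCs and 9.15 (1.62 to 16.7) in serum ESCs. All intervals overlapped, and the differences of 0.77 against BMP-4 ESCs and 0.67 against serum ESCs stayed under 2-fold. The ratio of FPKM of Pmaip1 to Bbc3 was 0.00761 in untreated EpiSCs, against 0.738 in BMP-4 ESCs and 0.800 in serum ESCs.

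Zmat3, Trp53inp1 and Eda2r also stood above their ESC levels in all EpiSC libraries. Zmat3 encodes an RNA-binding zinc finger protein (chromosome 3, 32233716 to 32266360), and it had 20.6 FPKM (10.2 to 31.0) in untreated EpiSCs, 20.0 (9.79 to 30.3) after 1.5 h and 21.9 (10.8 to 33.1) after 24 h, against 7.56 (2.89 to 12.2) in BMP-4 ESCs and 9.37 (3.83 to 14.9) in serum ESCs. Trp53inp1 encodes a stress protein that acts in the nucleus and in autophagy (chromosome 4, 11083588 to 11101524), and it had 41.5 FPKM (21.6 to 61.4), 39.9 (20.4 to 59.3) and 51.5 (27.3 to 75.6) in the EpiSC libraries in order of time, against 19.2 (8.38 to 30.0) in BMP-4 ESCs and 18.6 (8.28 to 28.9) in serum ESCs. Both genes were at least 2-fold higher in untreated EpiSCs than in either ESC library, with overlapping intervals. The fold of Zmat3 was 2.52 against BMP-4 ESCs and 2.08 against serum ESCs, and that of Trp53inp1 2.11 and 2.17. Eda2r encodes a receptor for the A2 form of ectodysplasin (chromosome X, 94529180 to 94572548), and it had 26.0 FPKM (9.77 to 42.3), 23.0 (8.24 to 37.7) and 21.9 (6.26 to 37.6) in the EpiSC libraries in order of time, against 10.9 (2.49 to 19.2) in BMP-4 ESCs and 17.5 (5.34 to 29.7) in serum ESCs. Untreated EpiSCs were 2.28-fold over BMP-4 ESCs and 1.46-fold over serum ESCs, again with overlapping intervals.

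By intervals, the primed level was apart and higher for 1 of the 10 genes (Perp) against serum ESCs, where 2.68% of all genes were, and for 3 (Cdkn1a, Ccng1 and Perp) against BMP-4 ESCs, where 2.39% were. Pmaip1 was apart and lower in both, as were 2.85% and 3.12% of genes. In the order of levels over the 5 libraries, the neighbours at the border of the states were apart for Perp and Pmaip1 alone, and no other pair of neighbours was apart for any of the 10 genes. Neighbours were not compared in this way over all genes, so no share stands beside this result. Pmaip1 passed the filter of 1 FPKM only through its ESC values.

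**Figure D2:**
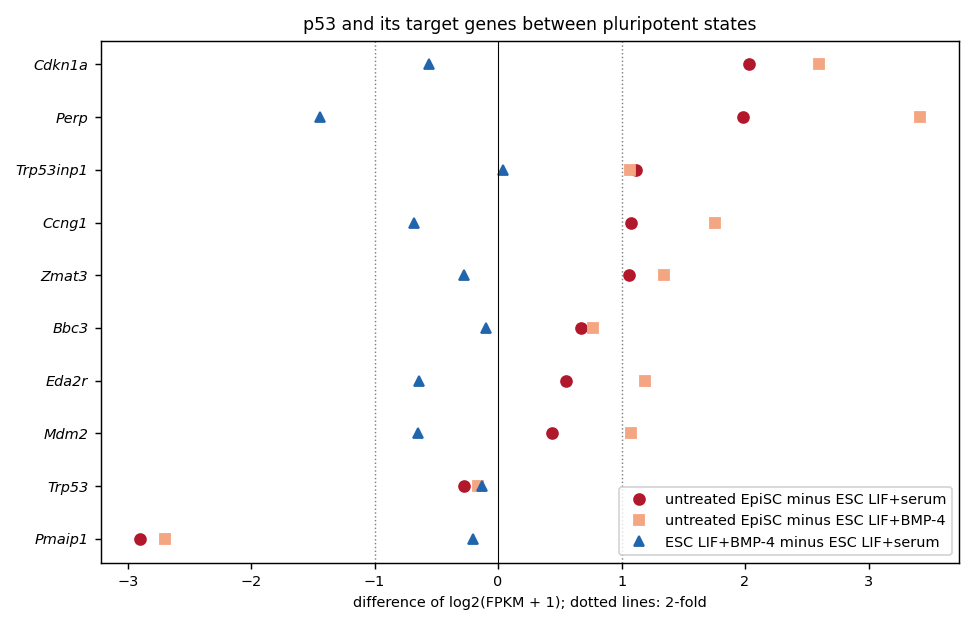
Difference of log2(FPKM + 1) (horizontal axis) for Trp53 and 9 targets (rows) in 3 comparisons of single libraries, with dotted lines at 2-fold. Against both ESC libraries 8 genes lie to the right of 0, with Cdkn1a at 2.03 and 2.60 and Perp at 1.98 and 3.42, and Pmaip1 lies at -2.90 and -2.70; between the ESC libraries Perp lies at -1.44.

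Further p53 targets included genes in both directions. Of 35 further targets, 33 had a mean of at least 1 FPKM, and in untreated EpiSCs 7 of these were higher and 3 lower against serum ESCs (median 0.15), where 11.6% of all genes were higher and 9.55% lower. Against BMP-4 ESCs 10 were higher and 4 lower (median 0.57), where 11.0% and 10.0% of all genes were. The lower counts were near the shares of all genes. The 4 largest upward differences were the same in both comparisons, which share the EpiSC library. Dcxr, a sugar reductase gene, had 29.1 FPKM in untreated EpiSCs, against 5.25 in BMP-4 ESCs and 4.44 in serum ESCs. Ddit4, which restrains mTOR signalling, had 92.1 FPKM in untreated EpiSCs, 21.8 in BMP-4 ESCs and 16.6 in serum ESCs. Plk2, a kinase gene, had 53 FPKM in untreated EpiSCs, against 7.37 in BMP-4 ESCs and 11.9 in serum ESCs, and the phosphatase gene Ptpn14 had 9.81 FPKM in untreated EpiSCs, against 1.67 in BMP-4 ESCs and 1.95 in serum ESCs. Ddit4, Plk2 and Ptpn14 were apart in both comparisons and Dcxr overlapped in both.

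In the other direction Tigar, which shifts sugar away from glycolysis, had 9.49 FPKM in untreated EpiSCs, against 28.1 in BMP-4 ESCs and 30.4 in serum ESCs, which is 2.77-fold and 2.99-fold lower. Against serum ESCs, Gdf15, a stress cytokine gene, stood at 0.537 FPKM in untreated EpiSCs and 2.85 in serum ESCs, and the kinase gene Plk3 at 4.79 in untreated EpiSCs and 11.1 in serum ESCs. Against BMP-4 ESCs, Gadd45a, a damage response gene, stood at 7.03 FPKM in untreated EpiSCs and 19.3 in BMP-4 ESCs. In the same libraries the sestrin gene Sesn1 stood at 8.26 FPKM in EpiSCs and 18.9 in ESCs, and the metalloreductase gene Steap3 at 0.775 in EpiSCs and 2.73 in ESCs. All of these downward differences had overlapping intervals. Gdf15, below 1 FPKM in all 3 EpiSC libraries, reached the mean of 1 FPKM only through its ESC values, so that filter favours its lower count. Steap3 reached that mean only through its BMP-4 ESC value, and the filter favours its lower count in the same way. Bax, the pore-forming effector of apoptosis, named after its values were seen, stood at 281 FPKM in untreated EpiSCs, against 282 in BMP-4 ESCs and 272 in serum ESCs.

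Of 22 regulators and cofactors of p53, 1 stood higher and 3 lower in untreated EpiSCs against serum ESCs, and 0 were higher and 4 lower against BMP-4 ESCs (median -0.16 in both). Among all genes 11.6% were higher and 9.55% lower against serum ESCs, and 11.0% and 10.0% against BMP-4 ESCs, so these small counts are given as a description and not as a change of the list. Sirt1, a deacetylase that acts on p53, had 14.3 FPKM in untreated EpiSCs, against 44.7 in BMP-4 ESCs and 49.4 in serum ESCs, apart from the serum library. Atr, a kinase gene of the replication stress response, had 4.29 FPKM in untreated EpiSCs, 10.8 in BMP-4 ESCs and 10.9 in serum ESCs, with overlapping intervals. Besides Mdm4, Sirt1 and Atr, Cdkn2a, whose Arf product holds Mdm2, was 2.07-fold lower than in BMP-4 ESCs (1.70 FPKM in EpiSCs and 4.59 in ESCs). The 1 higher gene was Ppp1r13l, which encodes an inhibitor of p53 (6.56 FPKM in untreated EpiSCs and 2.64 in serum ESCs).

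**Figure D3:**
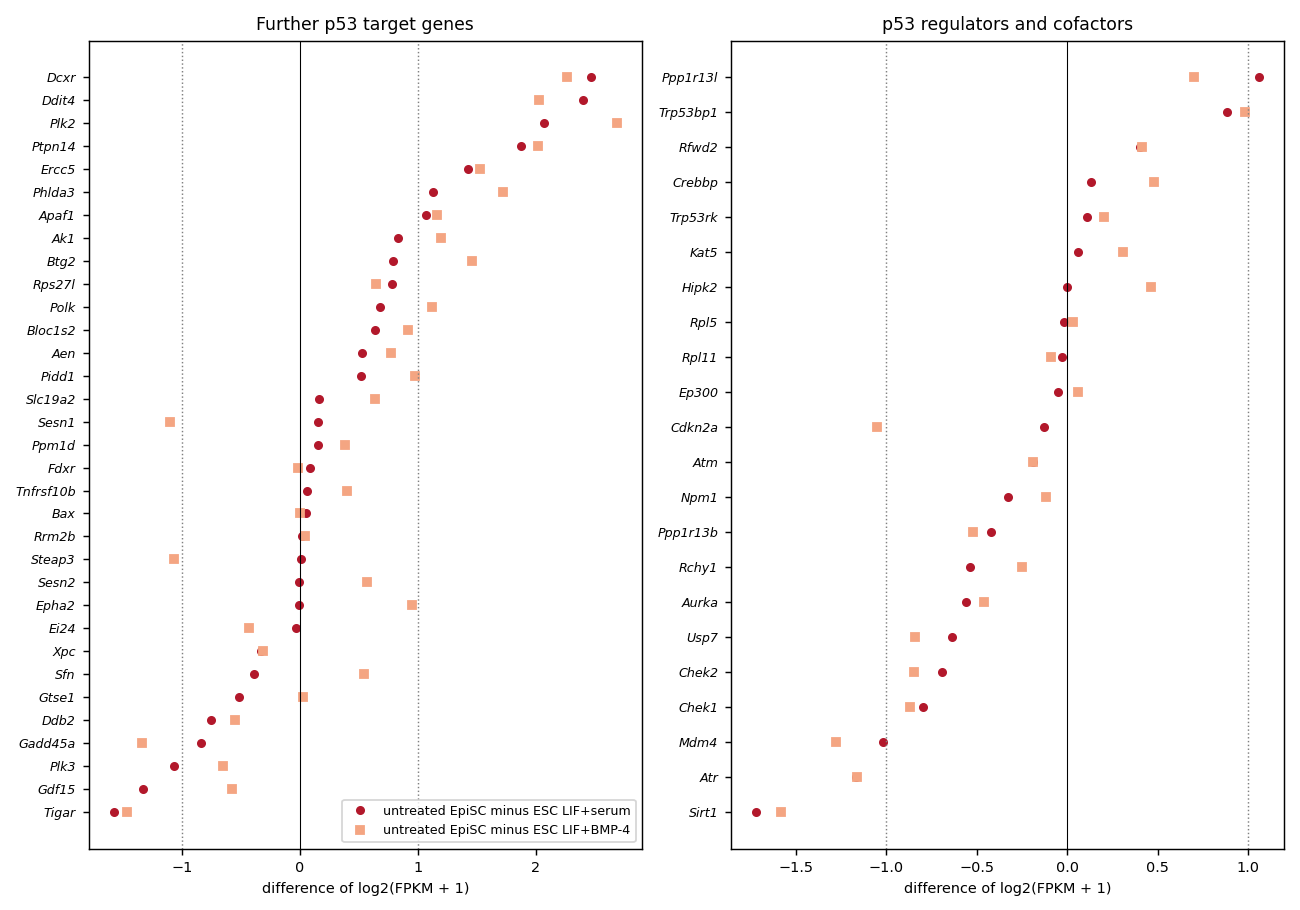
Difference of log2(FPKM + 1) (horizontal axis) of untreated EpiSCs minus each ESC library for 33 further p53 targets (left) and 22 regulators and cofactors of p53 (right), with dotted lines at 2-fold. Dcxr, Ddit4, Plk2 and Ptpn14 lie farthest to the right on the left side, and Sirt1, Atr and Mdm4 lie left of the 2-fold line in both comparisons on the right side.

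Further small lists hold genes that act beside the 10, and their counts are to be read against the same shares of all genes, 11.6% higher and 9.55% lower against serum ESCs and 11.0% and 10.0% against BMP-4 ESCs. In lists of 8 to 10 genes, 1 or 2 genes in a direction is near those shares. The CDK inhibitor gene Cdkn1c (p57) was higher in the same cells as Cdkn1a. Cdkn1c had 263 FPKM in untreated EpiSCs, against 40.2 in BMP-4 ESCs and 46.5 in serum ESCs, apart from both, and the ratio of FPKM of Cdkn1c to Cdkn1a was 7.90 in untreated EpiSCs, 8.62 in BMP-4 ESCs and 6.31 in serum ESCs. Of 4 CDK inhibitors with a mean of at least 1 FPKM, 2 (Cdkn1a itself and Cdkn1c) were higher and 0 lower against serum ESCs, and 2 were higher and 1, Cdkn2a, lower against BMP-4 ESCs. Of 9 G1 cyclins and CDKs, 0 were higher and 1, Ccnd3, lower against serum ESCs, and 2, Ccne2 and Cdk6, were higher and 0 lower against BMP-4 ESCs. Of 10 cell cycle genes, most of them of G2 and mitosis, that p21 is known to lower through the DREAM complex or related routes, only Mybl2 passed 2-fold in either comparison. Mybl2 is not itself a G2 or mitotic gene. Mybl2 had 18.7 FPKM in untreated EpiSCs, against 182 in BMP-4 ESCs and 197 in serum ESCs, apart from both, and the list median was -0.41 against serum ESCs and -0.29 against BMP-4 ESCs. Of 8 Bcl2 family genes, 1, Bcl2l11, was higher in EpiSCs against serum ESCs, and 2, Bmf and Mcl1, were lower against BMP-4 ESCs. Bmf, another BH3-only gene, had 1.27 FPKM in untreated EpiSCs, against 8.83 in BMP-4 ESCs, with intervals apart, and 1.55 in serum ESCs. Mcl1, the partner of Noxa, had 57.6 FPKM in untreated EpiSCs, against 127 in BMP-4 ESCs and 115 in serum ESCs, with overlapping intervals.

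The ESC libraries differ in BMP-4 and also in basal medium against serum, and these cannot be told apart. In this comparison 9 of the 10 genes stood below their serum level, against 52.1% of 11010 genes, with a median of -0.42 where all genes had -0.02. Of these 1 (Perp, 5.01 FPKM with BMP-4 and 15.3 with serum) was at least 2-fold lower, as were 1.28% of genes, and 0 of the 10 were higher, where 2.61% of genes were. Intervals were apart for 0 of the 10 and for 0.209% of genes. Ccng1 (-0.68), Mdm2 (-0.65), Eda2r (-0.64) and Cdkn1a (-0.56) followed Perp (-1.44) in size. Between 3.55% and 5.65% of genes were as far down as these 4. Zmat3 (-0.28), Pmaip1 (-0.20), Trp53 (-0.13) and Bbc3 (-0.10) were closer to their serum level, and Trp53inp1 (0.04) was the one gene above it. The further targets had a median of -0.24, with 2 of 33 higher, Sesn1 and Steap3, and 0 lower. Steap3 (2.73 FPKM with BMP-4 and 0.767 with serum) reached the mean of 1 FPKM only through its BMP-4 ESC value, so that filter favours its higher count. Of the Bcl2 family genes, Bmf alone passed 2-fold (1.95, with overlapping intervals).

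BMP-4 in EpiSCs left the 10 genes near their untreated levels at both times. After 1.5 h 0 of the 10 were higher or lower, against 0.236% and 0.182% of genes, and after 24 h likewise 0, against 0.654% and 0.527%. Intervals were apart for none of them at either time, and for 0.0273% and 0.0818% of genes. The differences ran between -0.17 and 0.08 after 1.5 h and between -0.24 and 0.30 after 24 h. The sign was downward for 9 of 10 genes after 1.5 h, against 51.9% of genes, with a median of -0.05, and for 5 of 10 after 24 h, against 50.2%. The 2 comparisons share the untreated library, and Pmaip1 rested on 3, 1 and 1 reads. At 24 h the largest upward differences were those of Trp53inp1 (41.5 FPKM untreated and 51.5 after 24 h) and Cdkn1a (33.3 and 39.4), and the largest downward one was that of Eda2r (26.0 and 21.9). Between 7.66% and 11.2% of genes differed as much as these 3 in their direction. From 1.5 h to 24 h 0 of the 10 were higher or lower, against 0.609% and 0.427% of genes, and Trp53inp1 again differed most (0.36).

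**Figure D4:**
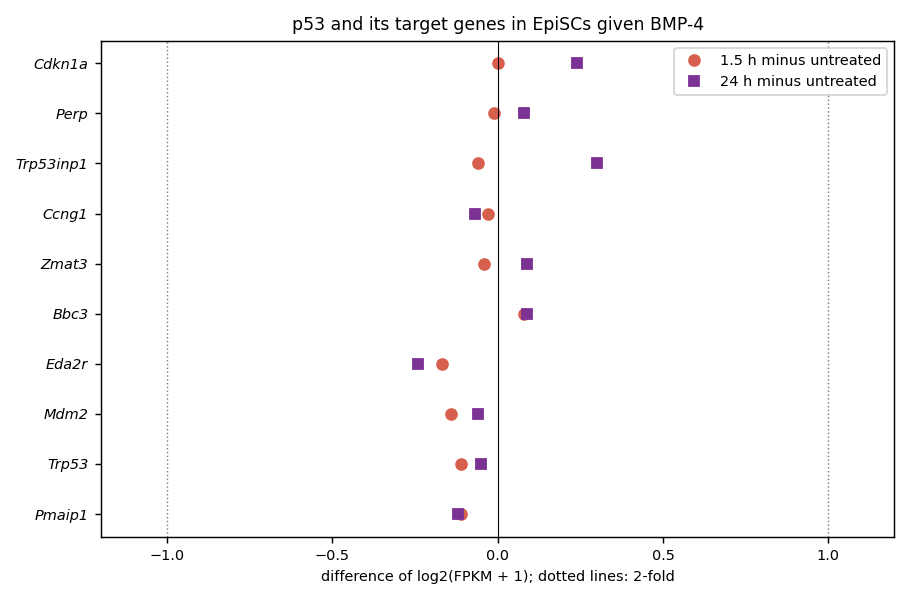
Difference of log2(FPKM + 1) (horizontal axis) of EpiSCs after 1.5 h and 24 h of BMP-4 minus untreated EpiSCs for Trp53 and 9 targets (rows), with dotted lines at 2-fold. All points lie between -0.24 and 0.30, well inside the lines.

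Among the lists that act beside the 10 genes, 0 genes passed 2-fold after 1.5 h, and after 24 h 1 did, the cyclin gene Ccnd2 (1.89 FPKM untreated and 7.12 after 24 h, with overlapping intervals). Across the 3 EpiSC libraries the range of log2(FPKM + 1) had a median of 0.12 over the 10 genes, where all genes had 0.16, and ran up to 0.36 for Trp53inp1. Across the 2 ESC libraries that median was 0.42 over the 10 genes and 0.22 over all genes.

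The profiles over the 5 libraries were also compared by the root mean square difference of log2(FPKM + 1) after each gene was centred on its own mean, a description over 5 points that come from the same libraries for every gene. Among 7668 genes averaging 5 FPKM or more, the 3 nearest to Cdkn1a were Pcdhgc3 (0.0900), Sfmbt2 (0.0904) and Plk2 (0.127), the last a p53 target of the list above. Those nearest to Mdm2 were Zfp146 (0.0411), Myc (0.0517) and Eda2r (0.0610), and Myc (0.0474) was also the nearest to Eda2r, before Irf2bp2 and Mdm2. For Ccng1 the nearest were 2810417H13Rik (0.0395), Tro (0.0546) and Gabarapl1 (0.0564), for Zmat3 Zcrb1 (0.0415), Dzip1 (0.0467) and Sorbs3 (0.0484), and for Trp53inp1 Gng2 (0.0356), Rell1 (0.0514) and Cpt2 (0.0776). For Perp the nearest were Sh3bgrl (0.0907), Cnn2 (0.221) and Nap1l2 (0.239). The nearest to Pmaip1, which was high in ESCs, were Sh3gl2 (0.0758), Crabp1 (0.0848) and Nid1 (0.123). Within the 10 genes the closest pair was Mdm2 and Eda2r (0.0610), followed by Zmat3 and Trp53inp1 (0.132), and the farthest was Pmaip1 and Perp (2.77).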

How the data were processed

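The deposited gene table holds FPKM values that the authors made from reads aligned to mm9. The submitters' processing notes name TopHat, Cufflinks, Picard and SAMtools. A lower bound, an upper bound and a status stand beside each FPKM, per the file headers, and the status was OK for all 10 genes. Annotation, filters, use of strand and scaling of the libraries are not given in these sources. Loci are written from 1. Per the labels' protocols, polyadenylated RNA went into directional libraries made with a small RNA kit.

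Differences of log2(FPKM + 1) were computed in Python 3.11.15 with pandas 2.3.3 for genes that averaged at least 1 FPKM and had status OK in both libraries compared. The 10 genes and the gene lists were chosen with earlier results of these data known. Named genes are the 10, at most 4 genes per list, comparison and direction, and the 3 genes of nearest profile for each of the 10 whose log2 range was at least 1. Bax, Trp53cor1 and Trp63 were named outside this rule, after their values were seen. Tigar was matched through its older symbol in a RefSeq table. Depth is not in the table. For the 24 h EpiSC library it was estimated from values below 0.5 FPKM in genes with a single GENCODE M21 transcript over 1500 nt. Each other library was scaled from the 24 h library by the most frequent ratio of FPKM among genes below 0.5 FPKM in both. With the median length of each gene's coding transcripts in GENCODE M21, these estimates give about 37 to 9232 reads per gene and library for the 10 genes other than Pmaip1. The low end is Bbc3, whose median length there is 485 nt, and a longer transcript would give more reads. Only 1 locus overlapped one of the 10, 4930429B21Rik at Zmat3, at most 1.06 FPKM. Alternatives were other pseudocounts, filters on low values, a median-of-ratios rescaling and a looser rule for intervals.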

Additional observations from a re-analysis of the deposited data

How the results depend on the processing

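No paired analysis was possible because no group had a second library, and for the same reason none could be left out. Counts of genes at least 2-fold apart are given as higher and then lower. A count is called moved where it changed by more than 1.5 times, or to or from 0. Smaller changes are not listed, such as 1272 genes higher in untreated EpiSCs against serum ESCs becoming 1464 with a pseudocount of 0.5 FPKM. A pseudocount of 0.5 FPKM moved 3 of 108 counts, each to 1: the higher regulators in untreated EpiSCs against BMP-4 ESCs and, between the ESC libraries, the higher regulators and higher CDK inhibitors. A pseudocount of 0.1 FPKM gave those same counts of 1, 2 lower further targets between the ESC libraries and 1 after 24 h, and for all genes 600 and 280 between the ESC libraries, 69 and 59 after 1.5 h, 165 and 131 after 24 h and 130 and 108 for 24 h against 1.5 h. It moved Pmaip1 to -5.11 in untreated EpiSCs against serum ESCs, -4.88 against BMP-4 ESCs, -0.68 after 1.5 h and -0.75 after 24 h, and no other of the 10 genes beyond its interval. A mean of at least 5 FPKM left out Pmaip1, which set the lower count of the 10 genes to 0 against both ESC libraries. With fewer genes compared, all-gene counts became 709 and 614 in untreated EpiSCs against serum ESCs, 675 and 624 against BMP-4 ESCs, 151 and 91 between the ESC libraries, 12 lower after 1.5 h, 34 and 33 after 24 h and 36 and 31 for 24 h against 1.5 h. Under that filter the higher count became 0 for the p53 family against both ESC libraries, for Bcl2 family genes between the ESC libraries and for G1 cyclins at 24 h against untreated and 1.5 h, and 1 for further targets between the ESC libraries, while the lower count against BMP-4 ESCs became 0 for CDK inhibitors and 1 for Bcl2 family genes. Asking only that each value lie outside the other interval gave 5 of the 10 genes higher in untreated EpiSCs against serum ESCs and 6 against BMP-4 ESCs. This looser rule was not counted over all genes, so the shares given for intervals apart do not apply to it. Rescaling, with factors of 0.992 to 1.023, and no filter on low values moved 0 of 108 counts past 1.5 times. With 1 library per group the deposited intervals are the only error at hand, and the labels do not say how these were modelled.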
